A study of Mus with 7 samples.

Results

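Fetal liver-derived macrophages (FLMs) were compared after 1 h and after 4 h of lipopolysaccharide (LPS), both without docosahexaenoic acid (DHA), to ask which genes declined, persisted or started between these hours. The comparison rests on the libraries Veh.LPS.1 and Veh.LPS.4, which are 2 of the 7 libraries of the series. Cells were kept when they held over 20000 unique molecular identifiers (UMIs, 1 for each captured RNA molecule), at least 2000 genes and under 20% of UMIs from mitochondrially encoded genes. This left 3073 cells at 1 h and 993 cells at 4 h, together 4066 of the 11640 cells that passed in the whole series. FLMs are self-renewing cells grown from the fetal liver of wild-type C57BL/6J mice in 30 ng/mL GM-CSF, a culture model that may differ from the macrophages of a tissue. Every culture used here was moved for 24 h to medium with 0.25% FBS and the vehicle (Veh), 8.3 µM bovine serum albumin, and then received 20 ng/mL LPS for 1 h or 4 h, or none (Veh.LPS.0, 2481 cells). DHA.LPS.1 and DHA.LPS.4 are the same hours with 25 µM DHA carried on the same albumin.

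LPS is sensed by TLR4 with CD14 and MD-2, and its adaptors feed the NF-kB and MAP kinase pathways and, from endosomes, the IRF factors that switch on interferon beta. Macrophages answer in waves. Immediate-early transcription factors and feedback inhibitors need no new protein synthesis, and most cytokines and inflammatory enzymes follow. Many interferon-stimulated genes come last because they depend on interferon that the cells first have to secrete.

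Each condition had 1 library. Differences therefore have no replicate check, and no p-value can be given. Genes were called by size alone, past 2-fold in CPM, the UMIs of a gene summed over the kept cells and scaled to a common library total, and "declined", "persisted" and "started" name such size classes. Intervals are exact binomial 95% intervals, on UMIs for ratios and on cells for shares of cells. They cover counting error only, since the cells of 1 library are not replicates. Library and hour of LPS cannot be told apart. The libraries held 94540624 UMIs at 1 h and 58598526 UMIs at 4 h, with a median of 29369 and 56239 UMIs per cell, so a CPM gives a share of the captured RNA and not an amount per cell. Of all barcodes, 35.8% at 1 h and 54.7% at 4 h had at least 20% mitochondrial UMIs and were left out. No kept barcode occurred in both libraries. At least 3 of 9 macrophage markers were found in every cell. None held 3 markers of any of the 8 other cell types checked, a count of 0 that puts an upper limit of 0.0976% at 1 h and 0.302% at 4 h on such cells. The summed markers of each of these 8 types were at or below 7.88 CPM in both libraries, against 6050 and 7089 CPM for the macrophage markers.

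A gene was measured when 50% or more of the cells in 1 of the libraries held a UMI of it. Of 5852 measured genes, 260 (4.44%) were more than 2-fold higher at 4 h than at 1 h and 581 (9.93%) were more than 2-fold lower. The split depended on the scaling. TMM factors, which assume that most genes keep their level, added 0.32 to every log2 ratio of 4 h over 1 h and gave 422 higher (7.21%) and 306 lower genes (5.23%). The median of the measured genes was -0.18 by library total and 0.14 with TMM. Higher genes were thus 30.9% of the calls by total and 58.0% with TMM, while 260 higher and 306 lower genes were called with both. Values below are by library total unless TMM is named.

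In the first hour, 138 of 5777 genes (2.39%) had passed 2-fold over Veh.LPS.0, and 163 (2.82%) with TMM. Of the 138, 49 then declined by more than 2-fold, 74 persisted within 2-fold and 15 rose further. With TMM the 3 classes held 40, 95 and 28 genes, and 39 declined and 63 persisted genes were shared by the scalings. Another 166 of 5571 genes (2.98%) started after 1 h, being at most 1.5-fold over 0 h at 1 h and over 2-fold above both earlier libraries at 4 h. With TMM these were 294 (5.28%), and 152 were shared. The limit on cells for this class used the deeper 4 h library alone, so it favoured genes with a higher share at 4 h. At 20000 UMIs per cell 116 genes started, 110 of them among the 166. Both ratios that define the classes contain Veh.LPS.1, so a chance high value there would push a gene towards the declined class and a chance low value towards the started class.

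**Figure D1:**
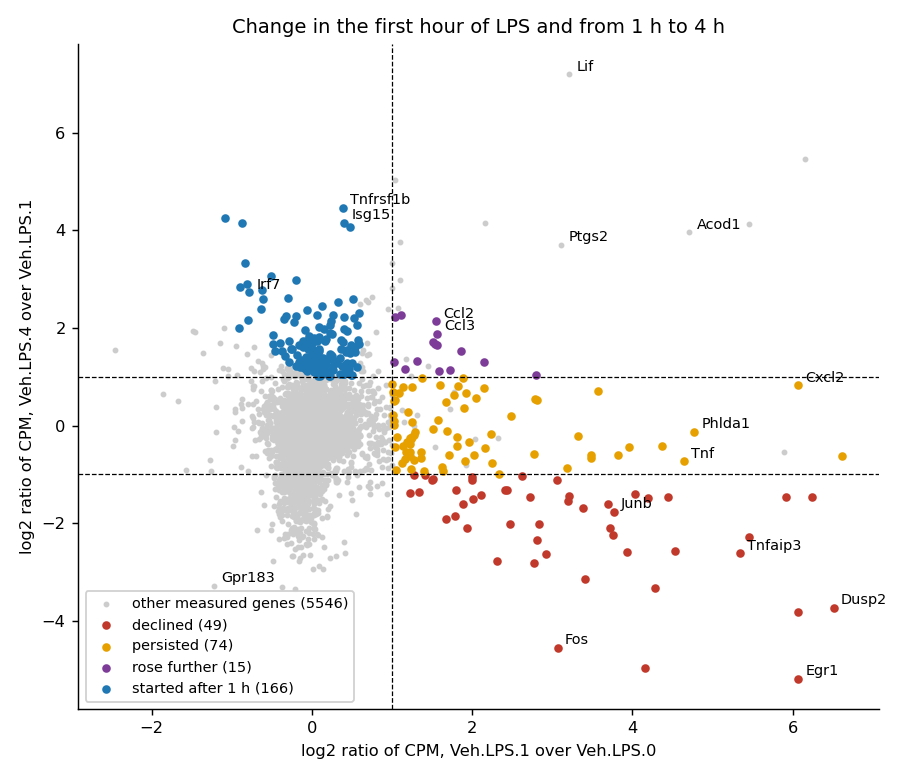
Each point is a gene measured in the comparison with UMIs at 0 h and 1 h. The x axis is the log2 ratio of CPM from 0 h to 1 h and the y axis that from 1 h to 4 h, with dashed lines at 2-fold. Declined genes (49) sit at the lower right down to Egr1 at -5.19, persisted genes (74) between the lines, and started genes (166) at the upper left up to Tnfrsf1b at 4.47. Il1b has no UMI at 0 h and is not drawn.

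The genes that declined most were immediate-early transcription factors. Egr1, a zinc finger factor of the early growth response family, went from 9.66 CPM at 0 h to 648 CPM after 1 h and 17.8 CPM after 4 h, a log2 ratio of 4 h over 1 h of -5.19 (-5.28 to -5.10). At a matched 20000 UMIs per cell, Egr1 was found in 97.4% of cells at 1 h and 11.1% at 4 h. Its relative Egr3 had 3.90, 69.5 and 2.20 CPM, and Egr2 had 1.20, 80.4 and 5.67 CPM. Egr3 therefore ended below its level before LPS and Egr2 above it. Fos, which pairs with JUN proteins to form AP-1, had 18.6 CPM before LPS, 156 CPM after 1 h and 6.66 CPM after 4 h. Fosb was rarer, with 875 UMIs at 1 h and 8 UMIs at 4 h, a log2 ratio of -6.08 (-7.30 to -5.10). The JUN partners were lower by less, with Jun at 66.3, 451 and 63.7 CPM and Junb at 105, 1427 and 419 CPM. Jun was thus back at its 0 h level, whereas Junb was still above it.

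Across the list of AP-1, EGR and other immediate-early factors, 26 genes reached 10 UMIs in each library, and 17 of them were more than 2-fold lower at 4 h and 2 higher. The background for such a list is all 11539 genes with as many UMIs, of which 19.2% were lower and 5.3% higher, with a median log2 ratio of -0.31. With TMM these shares were 11.7% and 8.52%, and the median was 0.01. The median of the list was -1.47, or -1.15 with TMM. The 2 exceptions were Atf3, a stress-responsive repressor, and Myc. Atf3 had 39.7, 144 and 419 CPM at 0, 1 and 4 h. Myc was scarce throughout, with 0.577, 4.15 and 11.1 CPM.

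Genes for some feedback inhibitors of signalling were also among the declined genes. Dusp2 and Dusp1 encode phosphatases that switch off MAP kinases. Dusp2 had 3.68 CPM before LPS, 335 CPM after 1 h and 25.2 CPM after 4 h, and Dusp1 had 3.53, 81.8 and 13.7 CPM. Dusp5 had 1.89, 115 and 41.3 CPM, so all 3 stayed above their 0 h levels. Of the 11 dual-specificity phosphatases, 5 were lower and 1 was higher, against 19.2% lower and 5.3% higher of all 11539 genes. With TMM 4 were lower and 1 higher, against 11.7% and 8.52%. The higher gene, Dusp6, an ERK phosphatase, had 24.5 CPM before LPS, only 8.90 CPM after 1 h and 33.6 CPM after 4 h. It was therefore low at the hour when Dusp1, Dusp2 and Dusp5 were high.

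Tnfaip3 encodes A20, a ubiquitin-editing enzyme that restrains NF-kB, and had 4.10 CPM before LPS, 166 CPM after 1 h and 27.1 CPM after 4 h. Zfp36 encodes tristetraprolin, which marks AU-rich cytokine mRNAs for decay, and had 38.7, 511 and 119 CPM. The atypical IkB proteins Nfkbiz and Nfkbid, nuclear co-regulators of NF-kB, had 6.75, 510 and 185 CPM and 8.03, 108 and 22.9 CPM. Tnfaip3, Zfp36, Nfkbiz and Nfkbid had all come down from 1 h without reaching the level before LPS. Trib1, a pseudokinase that guides protein degradation, had 7.92, 60.2 and 9.74 CPM. Ier3, an early survival gene, had 165, 3592 and 1309 CPM.

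Not every feedback gene declined. The classical IkB alpha gene Nfkbia had 221 CPM before LPS, 1503 CPM after 1 h and 1002 CPM after 4 h and so persisted. Zc3h12a, which encodes the RNase regnase-1, had 10.8, 74.1 and 109 CPM. Socs3, an inhibitor of STAT3 signalling, had 14.7, 164 and 103 CPM. Within the list of 15 TNFAIP3, TNIP, TRAF and IRAK regulators, 3 genes were lower and 1 was higher, with a median of 0.05. Among 11 mRNA decay factors 2 were lower and none higher by total, while with TMM 2 were higher. The SOCS, PIM and STAT3 feedback list had 2 lower and 1 higher gene of 10, and the higher one, Pim2, a survival kinase, had 3.49 CPM after 1 h and 11.7 CPM after 4 h. The shares of lower genes in these 3 lists were near the 19.2% of all genes.

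Among other declining genes, Btg2, an antiproliferative co-regulator, had 19.1, 371 and 37.2 CPM at 0, 1 and 4 h. Chka, the first enzyme of phosphatidylcholine synthesis, had 23.4, 248 and 28.0 CPM. Errfi1, an inhibitor of EGF receptor signalling, had 2.17, 95.3 and 19.5 CPM, and Ppp1r15a, which directs dephosphorylation of eIF2 alpha, had 27.6, 287 and 89.5 CPM. Of the cytokines, Osm (oncostatin M) declined from 107 to 35.3 CPM and Tnfsf9 (4-1BB ligand) from 344 to 170 CPM. Over all 49 declined genes, 20 had returned to at most 1.5-fold of Veh.LPS.0 at 4 h, 9 of them below it, and 23 were still more than 2-fold above it. Their median log2 ratio over 0 h was 2.93 at 1 h and 0.94 at 4 h. With TMM fewer had returned, 10 of 40 to at most 1.5-fold and 4 of them below 0 h, and the median at 4 h was 1.35. Close to the limit by total, Tnfsf9 (-1.02, and -0.70 with TMM) counted as declined and Icam1 (-1.0) as persisting.

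**Figure D2:**
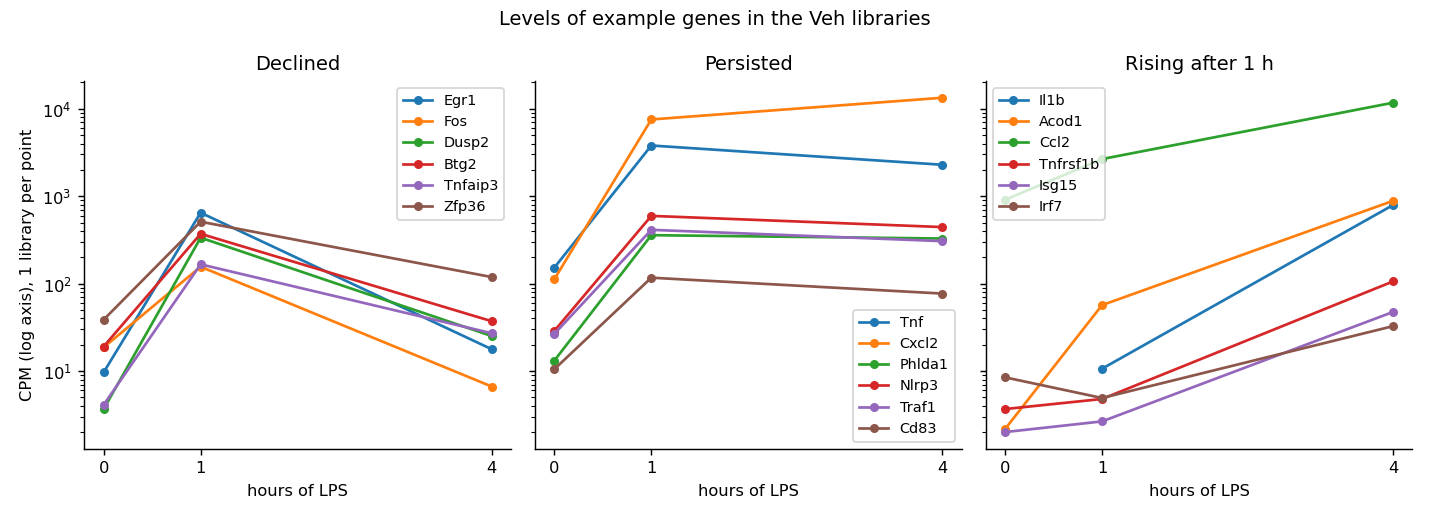
CPM on a log axis against hours of LPS in the Veh libraries, with 1 library per point and no error bar. Egr1, Fos, Dusp2, Btg2, Tnfaip3 and Zfp36 peak at 1 h, Tnf, Cxcl2, Phlda1, Nlrp3, Traf1 and Cd83 stay within 2-fold of their 1 h level, and the genes on the right reach their highest value at 4 h. Il1b is drawn from 1 h because no UMI was found at 0 h.

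Among the persisting genes were the first cytokines of the response. Tnf, the founding inflammatory cytokine of its family, had 152 CPM before LPS, 3799 CPM after 1 h and 2287 CPM after 4 h, a log2 ratio of -0.73 (-0.74 to -0.72) from 1 h to 4 h. Cxcl2, a neutrophil attractant, had 112, 7543 and 13362 CPM, a log2 ratio of 0.82 by total and 1.14 with TMM, so that TMM placed it past 2-fold. The 2 genes thus stood on opposite sides of their 1 h level in both scalings. Phlda1, a pleckstrin homology-like protein, had 13.2, 358 and 328 CPM. Nlrp3, the sensor of the inflammasome, had 28.8, 595 and 443 CPM, and Traf1, an adaptor of TNF receptors, had 26.6, 412 and 306 CPM.

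Pde4b, a phosphodiesterase that degrades cyclic AMP, had 4.95, 70.0 and 46.1 CPM, and Cd83, an activation marker, had 10.5, 117 and 76.9 CPM. Both were lower at 4 h than at 1 h by less than 2-fold. Marcksl1, a MARCKS-related actin regulator, had 40.7, 484 and 790 CPM. Its log2 ratio was 0.71 by total and 1.03 with TMM. Gm12840, which carries only a gene model name, had 0.861 CPM before LPS, 84.6 CPM after 1 h and 54.5 CPM after 4 h. Icam1, the adhesion molecule for leukocyte integrins, had 39.7, 201 and 101 CPM. Of the 74 persisting genes, 46 were lower at 4 h than at 1 h, the median log2 ratio was -0.23 by total, and 54 were still more than 2-fold above 0 h. All measured genes had a median of -0.18 by total, so the class was near them. With TMM, 52 of 95 persisting genes were lower and their median was -0.05, against 0.14 for all measured genes.

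The NF-kB and IkB list divided between these classes. Of its 11 genes, 8 had passed 2-fold over 0 h at 1 h, against 488 of 11539 genes. From 1 h to 4 h 2 were lower (Nfkbiz and Nfkbid), 2 higher and 7 within 2-fold. With TMM 4 were higher and 2 lower. Of all 11539 genes 19.2% were lower and 5.3% higher, or 11.7% and 8.52% with TMM. The share of lower genes by total was thus near that of all genes. The 2 genes that were higher by total encode the precursors p105 and p100. Nfkb1 had 50.1, 124 and 311 CPM, and Nfkb2 had 19.6, 30.3 and 84.4 CPM. The transactivating subunits Rela, Rel and Relb had 46.3, 161 and 51.1 CPM after 1 h and 28.5, 127 and 38.5 CPM after 4 h. By 4 h the precursor genes were therefore above and the transactivating subunits below their 1 h CPM, a split that with TMM left Relb at -0.09 and Rel at -0.02.

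The 15 genes that rose further included chemokines. Ccl2, which attracts monocytes, had 910 CPM before LPS, 2658 CPM after 1 h and 11723 CPM after 4 h, a log2 ratio of 2.14 from 1 h. The inflammatory chemokine genes Ccl3 and Ccl4 had 1160, 3414 and 12558 CPM and 1524, 5033 and 11013 CPM. The annotated spans of Ccl3 and Ccl4 overlap, so the division of counts between them is uncertain. Slc15a3, an endolysosomal peptide transporter, had 20.0, 43.2 and 207 CPM, and Pdgfb, a platelet-derived growth factor, had 30.6, 62.6 and 292 CPM. Gadd45b, a stress-response gene, had 26.7, 76.0 and 249 CPM, and Plaur, the urokinase receptor, had 68.2, 202 and 631 CPM.

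The highest ratios, such as those of Lif, Il1b, Il1f6 and Il1a, belonged to genes found in few cells at 1 h. A group of 34 higher genes was already more than 1.5-fold above 0 h at 1 h, or had no UMI at 0 h, yet 21 of them were found in under 50% of the cells at 1 h. These 21 counted as measured through the deeper 4 h library alone, so the limit on cells itself favoured a higher share at 4 h. Csf3, Acod1 and Ptgs2 were more than 2-fold over 0 h at 1 h, in 45.9%, 36.4% and 21.8% of cells before thinning. The limit of 50% of cells alone kept these 3 genes from counting as induced at 1 h. Il1b, interleukin-1 beta, had no UMI at 0 h, 10.6 CPM after 1 h and 792 CPM after 4 h, a log2 ratio of 6.22 (6.13 to 6.31). At 20000 UMIs per cell it was seen in 4.49% of cells at 1 h and 67.9% at 4 h (64.9 to 70.8). Il1a, interleukin-1 alpha, also had no UMI at 0 h, and had 5.32 and 191 CPM after 1 h and 4 h. Il1f6, which encodes interleukin-36 alpha, had 0.0203, 1.44 and 63.9 CPM, and the antagonist Il1rn had 64.5, 129 and 913 CPM.

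Lif, a cytokine of the interleukin-6 family, had the highest log2 ratio among measured genes, 7.20 (6.87 to 7.56), from 0.751 CPM at 1 h to 111 CPM at 4 h. Csf3, the granulocyte colony-stimulating factor, had 2.12, 92.9 and 1622 CPM. Acod1, which makes the antimicrobial metabolite itaconate, had 2.17 CPM before LPS, 56.7 CPM after 1 h and 885 CPM after 4 h. It was found in 31.7% of cells at 1 h and 97.4% at 4 h at matched depth. Ptgs2, cyclooxygenase-2, had 4.13, 35.6 and 465 CPM. Its neighbour Ptgs2os2, a long non-coding RNA on the opposite strand, had 1.06, 2.28 and 30.9 CPM. The acute-phase genes Saa3 and Lcn2, which encode serum amyloid A3 and the iron-binding lipocalin-2, had 9.05 and 8.67 CPM after 1 h and 162 and 284 CPM after 4 h.

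Several inducible genes stayed below the limit on the share of cells and so entered no class. Nos2, the inducible nitric oxide synthase, had 5 UMIs at 1 h and 703 at 4 h, a log2 ratio of 7.83 (6.60 to 9.45), and was found in 12.1% of cells at 4 h. Csf2, the gene for GM-CSF, which the medium also contained as protein, had 0.825 CPM after 1 h and 80.9 CPM after 4 h. Il6 had 0.99 and 36.6 CPM. The chemokine genes Ccl22 and Cxcl3 had 11 and 5 UMIs at 1 h and 642 and 254 UMIs at 4 h. Ccl17 had no UMI at 1 h and 142 at 4 h, a CPM higher by a log2 ratio of at least 6.25 against a floor of 3 UMIs. Of 14 chemokines with 10 UMIs or more at each hour, 9 were higher and 1 lower, with a median of 2.01. Of 23 cytokines and growth factors, 13 were higher and 2 lower, with a median of 1.61. The inflammatory enzymes had 9 higher genes of 13 and none lower, and the antimicrobial and acute-phase proteins 5 of 9 and none lower. With TMM, 13 chemokines, 16 cytokines or growth factors, 11 enzymes and 6 antimicrobial or acute-phase genes were higher. Of the cytokine list 1 gene was then lower, and none in the other lists. The background of 11539 genes had 5.3% higher and 19.2% lower, or 8.52% and 11.7% with TMM.

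Among genes that started after 1 h, the highest ratio was that of Tnfrsf1b, the gene for TNF receptor 2. It had 3.68 CPM before LPS, 4.79 CPM after 1 h and 106 CPM after 4 h, a log2 ratio of 4.47 (4.33 to 4.61), and was found in 8.56% of cells at 1 h and 75.3% at 4 h. Hcar2, a receptor for niacin and ketone bodies, had 4.34, 2.05 and 39.5 CPM. Rgs16, which shortens G-protein signals, had 6.63, 3.62 and 64.0 CPM. Both were lower at 1 h than at 0 h. Il27, the p28 subunit of interleukin-27, had 1.63, 2.27 and 38.4 CPM, and Cebpd, a transcription factor of the acute-phase response, had 33.3, 29.2 and 232 CPM. Chac1, a glutathione-degrading target of ATF4, had 6.67, 3.80 and 28.4 CPM. Cd40, the costimulatory receptor for CD40 ligand, had 3.70, 5.27 and 31.9 CPM.

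The started class also held genes that were abundant before LPS. Ccl9, a CCR1 ligand, had 823 CPM before LPS, 993 CPM after 1 h and 4745 CPM after 4 h. Odc1, the first enzyme of polyamine synthesis, had 1334, 1869 and 5857 CPM. Bcl2a1b, an antiapoptotic BCL2 relative, had 144, 216 and 1067 CPM, although the near-identical Bcl2a1 copies make the division of their counts uncertain. Over the 166 started genes the median log2 ratio of 4 h over 1 h was 1.47, with 34 past 4-fold. Their median for 1 h over 0 h was 0.09. The definition of the class bounds both medians, so their contrast is no separate result.

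Of the pathway lists, interferon-induced effectors had the highest median. Of 30 genes, 27 were more than 2-fold higher at 4 h and none was lower, with a median of 2.63 by total and 2.95 with TMM. With TMM 28 were higher and none lower. The share of higher genes among all 11539 genes was 5.3% by total and 8.52% with TMM. The summed level of the list was 190 CPM before LPS, 159 CPM after 1 h and 756 CPM after 4 h. Of the 30 genes, 7 were already more than 2-fold over 0 h at 1 h, against 488 of 11539 genes, with no limit on UMIs at 0 h. Isg15, a ubiquitin-like modifier, had 2.0, 2.65 and 47.4 CPM and was found in 3.32% of cells at 1 h and 38.1% at 4 h (35.0 to 41.2). Ifit1, which binds foreign RNA, had 0.435, 1.99 and 43.6 CPM and was found in 16.1% of cells at 4 h. Its log2 ratio was 4.45, and 5.58 without the 10% of cells with most UMIs. Irgm1, an immunity-related GTPase, had 7.11, 3.99 and 40.1 CPM. Slfn5, a schlafen protein, had 10.6, 7.43 and 62.0 CPM, and Xaf1, a proapoptotic effector, had 9.03, 4.86 and 34.9 CPM. For these last 3 genes the 1 h library gave the lowest of the 3 values.

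Genes upstream of these were measured too. Irf7, the factor that amplifies type I interferon expression, had 8.47 CPM before LPS, 4.92 CPM after 1 h and 32.6 CPM after 4 h. Stat2, which carries the interferon receptor signal, had 14.1, 5.05 and 19.5 CPM. Ifnb1 itself, interferon beta, had no UMI at 0 h, 8 UMIs at 1 h and 197 UMIs at 4 h, a log2 ratio of 5.31 (4.31 to 6.54), and was found in 1.61% of cells at 4 h (0.924 to 2.60). With so few UMIs at 1 h its ratio moved to 7.29 without the 10% of cells with most UMIs and to 4.50 in cells called G1. The receptor subunit Ifnar1 stood at 23.0, 21.1 and 18.9 CPM. Among 12 IRF and STAT genes, 4 were higher and none lower, and with TMM 6 were higher and none lower. The background of 11539 genes had 5.3% higher, or 8.52% with TMM. Irf3, which phosphorylation activates, had 15.7 CPM after 1 h and 11.1 CPM after 4 h. Stat2 and Dusp6 belong to 45 higher genes that stayed under 2-fold of 0 h at 4 h. By that definition all 45 were lower at 1 h than at 0 h, and their difference from 1 h to 4 h was measured from a low point.

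**Figure D3:**
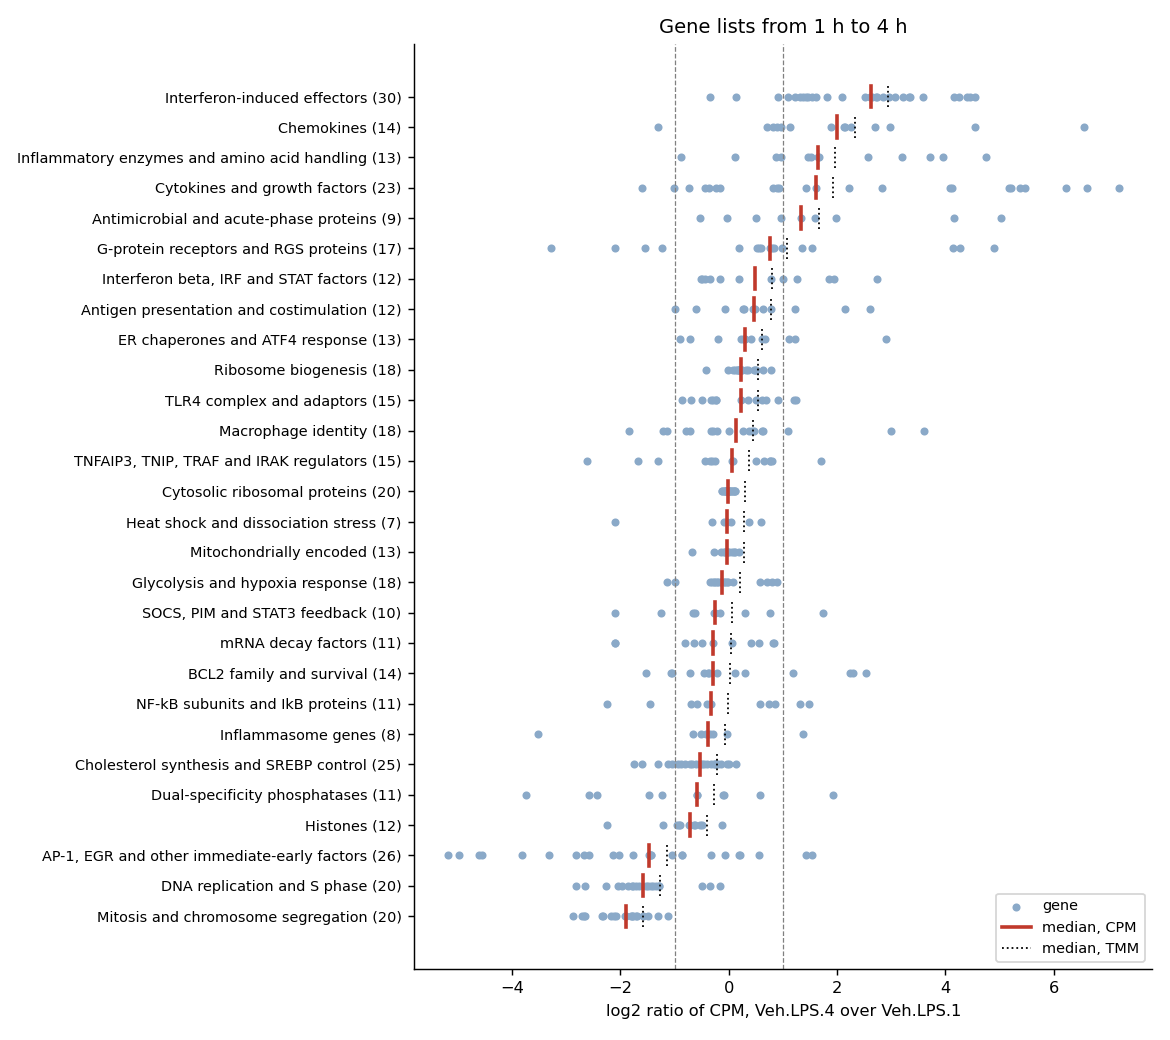
Each point is a gene of the named list that reached 10 UMIs at both hours, placed by its log2 ratio of CPM from 1 h to 4 h. The red bar is the list median by library total, the dotted bar that with TMM, and dashed lines mark 2-fold. Interferon-induced effectors and chemokines lie to the right (medians 2.63 and 2.01) and mitosis and replication genes to the left (medians -1.91 and -1.59).

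Of the 581 lower genes, 49 had passed 2-fold over 0 h at 1 h and 532 had not. Among all genes compared for that hour, 138 of 5777 (2.39%) had passed it, so most genes of any kind had not. Of the 532, 520 were within 1.5-fold of 0 h at 1 h, and 506 were under 50% of 0 h at 4 h. All 20 genes of mitosis and chromosome segregation were lower (18 with TMM), with a median of -1.91, and so were 17 of 20 genes of replication and S phase (15 with TMM), with a median of -1.59. The share of lower genes among all 11539 genes was 19.2% by total and 11.7% with TMM. Nusap1, a spindle protein, had 117, 118 and 15.5 CPM at 0, 1 and 4 h, and Kif11, the kinesin that separates spindle poles, had 92.5, 98.3 and 13.3 CPM. Tk1, thymidine kinase, had 58.9, 50.9 and 5.0 CPM. Ccnd1, cyclin D1, had 835, 626 and 286 CPM (log2 ratio -1.13, and -0.81 with TMM).

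Cells called S or G2M from such genes made up 62.5% at 1 h (60.8 to 64.3) and 19.1% at 4 h (16.7 to 21.7), at matched depth. The calls use genes of these lists and are no separate evidence. In the cells called G1, 1151 at 1 h and 803 at 4 h, the mitosis median was -0.89 and the replication median -1.33. The G1 call itself selects cells with little of such RNA, so these medians describe the chosen cells. Single members moved much, with Top2a at -2.12 in all cells and -0.40 in G1 cells and Tyms at -0.16 and 0.73. With no new limit on the share of G1 cells, 437 of the 581 lower genes were also past 2-fold there. So were 48 of the 49 declined, 215 of the 260 higher and 142 of the 166 started genes. Of the 5852 measured genes, 8.24% were then lower and 4.0% higher. The G1 sums were taken from cells thinned to 20000 UMIs. With the limit of 50% applied to these cells, 233 lower, 40 declined, 143 higher and 89 started genes kept their class. Thinning all cells, with no choice of phase, kept 375, 42, 165 and 110 of them. Thinning alone thus already took genes from each class. The 12 histone genes had a median of -0.72 in all cells and 1.44 in G1 cells. Their direction thus depended on which cells were summed.

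The lower genes also included the receptor genes Gpr183, Csf1r and Fcgr1. Gpr183, which guides cells towards oxysterols, had 100 CPM before LPS, 42.9 CPM after 1 h and 4.39 CPM after 4 h, and was thus lower in each later library. Csf1r, the receptor for macrophage colony-stimulating factor, had 89.2, 85.0 and 36.7 CPM (log2 ratio -1.21, and -0.89 with TMM), and Fcgr1, the high-affinity IgG receptor, had 54.8, 46.1 and 12.8 CPM. Spi1, which encodes the macrophage factor PU.1, had 196, 205 and 317 CPM, and Itgam had 174, 174 and 175 CPM. Of 18 macrophage identity genes 3 were higher and 3 lower by total, and with TMM 3 were higher and 1 lower. All 11539 genes had 5.3% higher and 19.2% lower by total, and 8.52% and 11.7% with TMM. The shares of lower genes in the list were thus near or under those of all genes. Its median was 0.14 by total and 0.46 with TMM.

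In the list of cholesterol synthesis, 5 of 25 genes were lower and none higher, and with TMM 2 were lower, which is near or under the shares of all genes. The median was -0.53 by total and -0.21 with TMM. Hmgcs1, an early enzyme of the pathway, and Insig1, the protein that retains SREBP in the endoplasmic reticulum, were declined genes by total. Their levels were 412 and 224 CPM after 1 h and 135 and 90.1 CPM after 4 h. With TMM Hmgcs1 (-1.29) was still past 2-fold, and Insig1 (-0.995) fell just short of it. Fdps, which makes farnesyl diphosphate, was level at 532 CPM in both libraries.

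The sensing machinery was mostly within 2-fold of its 1 h level. The list of the TLR4 complex and adaptors held 15 genes, of which 2 were higher and none lower, with a median of 0.22. The 2 higher genes were Ly96, the gene for MD-2, and Tlr2, a receptor outside the TLR4 complex. With TMM 4 of the 15 were higher and none lower, and the median was 0.54. Tlr4 had 21.0, 14.6 and 17.0 CPM and Cd14 had 771, 1030 and 1943 CPM. The survival genes were mixed, with 4 higher and 3 lower of 14, and 4 higher and 1 lower with TMM. Pmaip1, the proapoptotic NOXA gene, was lower, with 28.1 CPM after 1 h and 9.78 CPM after 4 h. Mcl1, an antiapoptotic gene, persisted with 475, 1789 and 1088 CPM. G-protein receptors and RGS proteins had 5 higher and 4 lower genes of 17, and 9 higher and 3 lower with TMM. The inflammasome list had 1 higher gene, Casp4, and 1 lower gene, Pycard, of 8. Antigen presentation had 3 higher and none lower of 12, and the ER chaperone and ATF4 list 3 higher and none lower of 13. Of all genes with 10 UMIs at both hours, 5.3% were higher and 19.2% lower, or 8.52% and 11.7% with TMM. The shares of lower genes by total in the survival and G-protein lists were thus near that of all genes.

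Housekeeping lists stayed near the centre. None of 20 cytosolic ribosomal proteins, 13 mitochondrially encoded genes or 18 ribosome biogenesis genes passed 2-fold by total, with medians of -0.02, -0.04 and 0.23. With TMM these became 0.30, 0.28 and 0.55, with 1 biogenesis gene, Dkc1, past 2-fold. The glycolysis and hypoxia list had 2 lower and no higher genes of 18, and 3 higher and none lower with TMM. Of 7 heat shock and dissociation stress genes, Dnajb1 alone was past 2-fold, with 23.5, 90.2 and 21.1 CPM.

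Single cells added a difference that sums do not show. At 20000 UMIs per cell, Tnf was found in essentially every cell at both hours, 100% at 4 h, but its spread was not the same. Tnf counts at the 10th, 50th and 90th percentile of cells were 31, 77 and 116 UMIs at 1 h and 8, 27 and 103 UMIs at 4 h. At that matched depth the median cell thus had far fewer Tnf UMIs at 4 h, while the 90th percentile had hardly moved. Counts at a matched depth are shares of the captured RNA and not amounts per cell. Before thinning, the kept cells had a median of 29369 UMIs at 1 h and 56239 UMIs at 4 h. The 10% of cells with most Tnf held 17.7% of its UMIs at 1 h and 38.7% at 4 h. For Cxcl2 the percentiles were 64.2, 150 and 243 UMIs at 1 h and 19, 140 and 687 UMIs at 4 h, and its top 10% of cells went from 18.3% to 33.5%. Here the median cell was near its 1 h value although the summed CPM was higher. These percentiles and the cells of the next paragraphs were examined after the values had been seen.

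Some genes that were higher at 4 h differed from Tnf and Cxcl2 in this respect. Ccl2 went from 8, 39 and 115 UMIs at the same percentiles to 53.2, 204 and 424 UMIs, and its top 10% of cells held 31.1% of UMIs at 1 h and 23.1% at 4 h. Ccl3 went from 19, 61 and 124 to 51, 246 and 458 UMIs, with 24.2% and 21.4% in the top 10% of cells. Acod1 moved from 0, 0 and 4 UMIs to 3, 15 and 35 UMIs, with 68.0% and 25.2% of its UMIs in the top 10% of cells. The share of the top 10% was thus lower at 4 h for these 3 genes. Few UMIs per cell, as for Acod1 at 1 h, also raise that share. Il1b, Isg15 and Ccl5, a T cell attractant, remained uneven at 4 h, with 62.3%, 59.7% and 92.5% in the top 10% of cells. Housekeeping Rps6 had 13.5% at 1 h and 14.2% at 4 h.

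**Figure D4:**
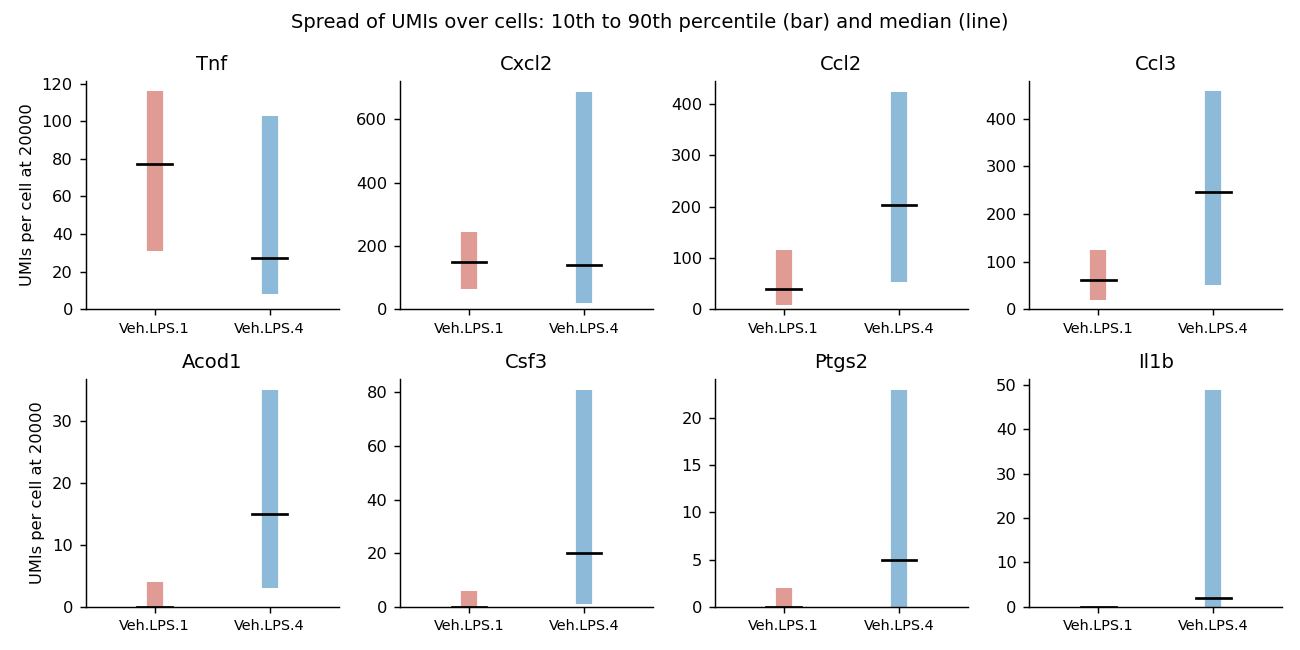
UMIs per cell at 20000 UMIs for 8 genes in Veh.LPS.1 (3073 cells) and Veh.LPS.4 (993 cells), with a bar from the 10th to the 90th percentile of cells and a line at the median, each panel on its own linear axis from 0. The Tnf median goes from 77 to 27 UMIs while its 90th percentile stays near (116 and 103), and the whole bar of Ccl2, Ccl3 and Acod1 moves up.

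The 99 cells with most Tnf at 4 h were also rich in some other genes. They held 27.1% of Cxcl2, 27.9% of Lif, 27.0% of Il1a and 21.1% of Nfkbiz UMIs, where an even spread would give 10%. The same cells held 12.9% of Isg15, 5.91% of Ifit1, 9.3% of Rps6 and 8.4% of Actb UMIs. In them, 77.8% were called G1, against 80.9% of all cells at 4 h. At 1 h the 307 cells with most Tnf held 11.7% of Cxcl2 and 12.9% of Nfkbiz UMIs. They also held 32.4% of 652 Il1b, 32.6% of 454 Ccl5, 23.8% of 357 Il1a, 43.2% of 111 Ifit1 and 53.1% of 49 Lif UMIs. For other scarce genes the share was 13.2% of 552 Saa3, 11.9% of 168 Isg15, 9.2% of 293 Tnfrsf1b and 0.18% of 544 Lcn2 UMIs. Scarce genes thus differed widely in their share in these cells at 1 h. Of these 307 cells 23.5% were called G1, against 37.5% of all cells at 1 h. The 99 cells with most Isg15 at 4 h held 71.3% of Ifit1 and 36.3% of Ccl5 UMIs but 11.3% of Tnf and 12.5% of Il1b UMIs. The 99 cells with most Il1b held 59.1% of Il1a, 30.7% of Saa3 and 16.7% of Tnf UMIs. Free RNA in droplets was not measured, since the libraries held no other cell type to read it from. No doublet caller was run. Leaving out the 10% of cells with most UMIs gave 257 higher and 552 lower genes.

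DHA.LPS.1 and DHA.LPS.4 share no library with the Veh pair and give the same hours once more, with 795 and 692 cells. Of 5464 genes measured there, 3.13% were more than 2-fold higher and 6.66% lower. Of the 49 declined genes, 47 were past 2-fold lower with DHA as well, of the 127 started genes that were measured there 98 were higher, and of 15 that rose further 12 were higher. A started gene that stays low with DHA can miss the limit on cells there, so the share of the 127 is conditioned on that limit. Without it, 116 of all 166 started genes were past 2-fold with DHA. Of the 74 persisting genes, 68 stayed within 2-fold. Most genes measured there did so too, with 3.13% higher and 6.66% lower, so this count does not set the class apart. The medians of declined genes were -1.61 with Veh and -1.83 with DHA, and those of started genes 1.41 and 1.28 over the 127. Egr1 had a log2 ratio of -5.19 with Veh and -5.74 with DHA, and Il1b had 6.22 and 7.30. Of the lower genes as a whole, 268 of 542 were past 2-fold with DHA, and the mitosis list had 7 of 20 lower genes and a median of -0.82. Beside that list, 1350 of 10677 genes with 10 UMIs at both hours in both pairs were lower with DHA. Cells called S or G2M made up 42.0% at 1 h and 30.1% at 4 h with DHA, against 62.5% and 19.1% with Veh. The part of this difference in the mitosis ratios was not tested.

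Among the pathway lists, the 2 pairs differed most in interferon-induced effectors. With DHA, 1 of the 25 members that reached 10 UMIs at both hours with DHA was higher and 6 were lower. The median with DHA over all 30 members, scarce ones included, was -0.14, against 27 higher of 30 and 2.63 with Veh. Of 10677 genes with 10 UMIs at both hours in both pairs, 416 were higher and 1350 lower with DHA. The median with DHA over the 11539 genes was -0.21, so the list median was near that of all genes. Isg15 had a log2 ratio of 4.16 with Veh and 0.92 with DHA, Ifit1 4.45 and -0.47, and Irf7 2.73 and -0.29. In contrast the chemokine list had medians of 2.01 and 2.07 and the inflammatory enzymes 1.65 and 1.83. The DHA libraries also differed in quality. At 1 h and 4 h, 74.4% and 80.0% of their barcodes had at least 20% mitochondrial UMIs, and the kept cells had a median of 37202 and 29631 UMIs, a fall where the Veh pair had a rise. The part of these differences in the ratios was not tested. With 1 library for each hour and treatment, a difference between these ratios could not be tested.

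**Figure D5:**
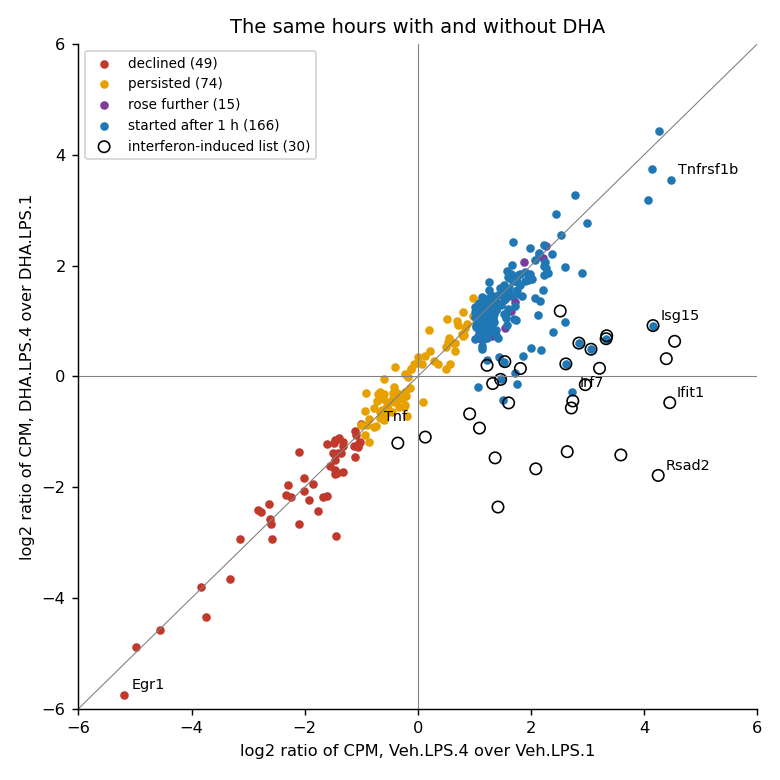
Log2 ratio of CPM from 1 h to 4 h with Veh (x axis) and with DHA (y axis) for the genes of the 4 classes, with the line of equal ratios. Open circles mark 30 interferon-induced effectors, 5 of which had under 10 UMIs in a DHA library. Declined genes lie near the line. So do many started genes, but that class also holds genes below the line, such as Irf7 at 2.73 and -0.29. The interferon-induced effectors lie mostly below the line, as with Ifit1 at 4.45 and -0.47.

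The classes also differed in annotated gene length. Spans in RefSeq (GRCm38.p6) had a median of 8446 bases for the 49 declined genes, 18021 bases for 72 of the 74 persisting genes and 33326 bases for 165 of the 166 started genes, against 22686 bases for 5820 measured genes. Spans under 10 kb made up 51.0%, 37.5% and 22.4% of the classes and 25.5% of the measured genes. This is a description, with no test. Of the higher genes 64 of 259 (24.7%) lay within 200 kb of another higher gene, and of the lower genes 175 of 579 (30.2%) lay as near to another lower gene. Of 5820 measured genes, 5083 (87.3%) lay as near to another measured gene. Such a share rises with the number of genes in the set, so these shares do not compare the sets. The higher genes named next are examples chosen after their values were seen. On chromosome 2, Il1a (chr2:129299609-129310186) and Il1b (chr2:129364569-129371164) were neighbours, as were Il1f6 (chr2:24215417-24225701) and Il1rn (chr2:24336860-24351491). On chromosome 11, Ccl2 (chr11:82035577-82037452) lay beside Ccl7 (chr11:82045712-82047525), which had 63.8, 137 and 1083 CPM at 0, 1 and 4 h. Ccl9, Ccl3 and Ccl4 formed a further run on chromosome 11, as did the schlafen genes from Slfn5 (chr11:82951349-82964850) to Slfn4 (chr11:83175172-83190216). The interferon-inducible Ifi204, Mndal, Ifi203 and Ifi202b lay on chromosome 1 between 173747293 and 173982844, and had 54.9, 374, 235 and 97.5 CPM after 4 h against 20.3, 165, 86.3 and 21.5 CPM after 1 h. Counts may be shared between the close relatives within the schlafen and Ifi200 families.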

How the data were processed

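FLMs were profiled as single cells with 10x Genomics chemistry. The authors deposited unnormalised UMI counts per gene and barcode for 7 libraries, with Cell Ranger 3.1.0 and mm10 named in the submitters' notes. These counts were filtered here by the limits on UMIs, genes and mitochondrial share given in the study's methods, summed per gene and library, and scaled to CPM by total or with edgeR 4.0.16 TMM factors. DESeq2 1.42.0 gave size factors as an alternative. With 1 library per condition no test was run, in place of the study's test over cells. Cells were thinned at random to 20000 UMIs for shares of cells, percentiles and phases (scanpy 1.11.5). Gene lists, members and limits were chosen with earlier results of these data known. Named genes were the extremes of each class and list and genes of the study's text, and others were chosen after their values were seen. Values of a few single genes are not reported here. Promoter and protein sequences were not analysed here.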

Additional observations from a re-analysis of the deposited data

Results flagged for a closer look

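For 9 named genes the log2 ratio of 4 h over 1 h lay on opposite sides of 0 with Veh and with DHA in both scalings. With 1 library on each side the difference was not tested. Of the interferon-related genes, Ifit1 had 4.45 with Veh and -0.47 with DHA, Rsad2 4.25 and -1.79, Irf7 2.73 and -0.29, Cxcl10 0.97 and -0.84, Socs1 0.77 and -0.40, and Gbp7 0.13 and -1.10. Rsad2 encodes the antiviral protein viperin and was seen in 2.62% of the cells at 4 h with Veh, at 20000 UMIs. Outside that group, Relb had -0.41 and 0.17. The histone gene Hist1h1d had -0.49 and 1.07, and mt-Atp8, an ATP synthase subunit, had -0.68 and 0.07. In the Veh cells called G1, Hist1h1d had 1.32, so its sign with Veh depended on which cells were summed.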

How the results depend on the processing

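No paired analysis was possible because each condition had 1 library, and none could be left out. Against 581 lower, 260 higher, 49 declined, 74 persisted and 166 started genes, TMM gave 306 lower, 422 higher and 294 started, and DESeq2 size factors 290, 444 and 310. A limit of 25% of cells gave 1166 lower, and no limit on cells with 10 UMIs gave 2965 lower, 795 higher, 389 declined, 280 persisted and 387 started. A 1.5-fold limit gave 1312 lower, 499 higher, 95 declined and 348 started. All barcodes gave 256 lower, 168 higher and 106 started, and cells called G1, themselves thinned to 20000 UMIs, gave 261, 150 and 98. Thinning to 20000 UMIs gave 170 higher. The other counts under the 11 alternatives stayed within 1.5 times. All 111 named genes past 2-fold kept their direction under 8 alternatives, as did 85 of 107 others and 22 of 34 list medians. Of the 218 named genes, 31 moved by more than 1.5-fold under at least 1 alternative, 25 of them only in the cells called G1. Depth limits scarce genes, such as Fosb with 8 UMIs at 4 h and Nos2 with 5 UMIs at 1 h. The spread between cultures could not be measured.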
